A study of Mus musculus with 6 samples.

Results

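The 10 circadian clock genes *Per1*, *Per2*, *Per3*, *Cry1*, *Cry2*, *Dbp*, *Nfil3*, *Nr1d1*, *Nr1d2* and *Tef* were followed in glomerular endothelial cells (GEC), the fenestrated cells that line the filtering capillaries of the kidney. They were chosen by name, as the repressors and output factors of the clock, from 19938 genes that the array annotation gives a probeset of their own. There were 3 samples from diabetic mice of genotype *Tie2-GFP*/*db/db* and 3 from normal mice of genotype *Tie2-GFP*/+/+, all 7 months old. Leptin receptor function is lost in *db/db* mice, which leads to obesity and diabetes, and *Tie2-GFP* is a transgene with an endothelial promoter, also active in some blood cells, by which GEC of sieved and enzymatically dissociated glomeruli were sorted. Both groups carried the transgene, and each sample was hybridised to 1 Affymetrix whole-transcript mouse array. Strain, sex, and the hour at which the animals were killed are not given in the sources used here.

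The clock is a feedback loop. ARNTL (also called BMAL1) and CLOCK bind E-box sequences and switch on the period genes (*Per*), the cryptochromes (*Cry*), the REV-ERB repressors (*Nr1d1*, *Nr1d2*) and the PAR bZIP activators (*Dbp*, *Tef*), and PER and CRY proteins in turn block ARNTL and CLOCK. The REV-ERBs repress *Arntl*, *Cry1* and *Nfil3*, which peak at the opposite side of the day from *Dbp* and *Nr1d1* in mouse liver and other peripheral tissues, and NFIL3 competes with DBP and TEF for D-box sequences in output genes. Endothelial cells carry such a clock. Depending on the hour of sampling, a difference in the phase of a running clock can move day-peaking and night-peaking genes in opposite directions.

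Short sequences that these factors can bind were looked for before the start sites of the genes. RefSeq promoters (build GRCm38.p6) were at hand for 9 of the 10, with 11 starts in all, *Per2* being the gene without an entry. The 250 bases before each start were searched on both strands for the E-box CACGTG, its variant CACGTT, the D-box (TTATGTAA or TTATGCAA), and the core of the response element that RORs and REV-ERBs share, the RORE core (TAGGTCA or TGGGTCA). The E-box was found before *Cry1*, *Per1* and *Tef*, its variant before *Cry1*, *Cry2* and *Nr1d1*, the D-box before *Per1* and *Per3*, and the RORE core before *Nfil3*. The same search before the starts of *Arntl*, *Clock* and *Npas2* found none of these sequences, so no RORE core before *Arntl*. Of all 32851 promoters in the table, 6.02% held the E-box, 3.85% the variant, 1.5% the D-box and 5.38% the RORE core. The windows of *Nfil3* and *Cry1* are printed because these were the genes with the widest difference between the groups, and those of *Per1* and *Per3* because they hold the D-box letters on which DBP, TEF and NFIL3 meet. Capitals mark the matches, which did not overlap one another, in the 5′ to 3′ direction of the gene, and TGACCTA and AACGTG are the RORE core and the E-box variant read from the other strand.
Nfil3 (chr13:52981040-52981076, minus strand): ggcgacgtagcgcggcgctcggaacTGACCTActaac
Cry1 (chr10:85185084-85185158, minus strand): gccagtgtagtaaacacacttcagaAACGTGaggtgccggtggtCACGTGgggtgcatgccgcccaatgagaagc
Per1 (chr11:69098758-69098948, plus strand): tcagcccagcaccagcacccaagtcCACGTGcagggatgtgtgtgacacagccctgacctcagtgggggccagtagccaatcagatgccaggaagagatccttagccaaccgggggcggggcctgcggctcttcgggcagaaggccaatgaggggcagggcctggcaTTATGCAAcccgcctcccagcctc
Per3 (chr4:151044791-151044895, minus strand): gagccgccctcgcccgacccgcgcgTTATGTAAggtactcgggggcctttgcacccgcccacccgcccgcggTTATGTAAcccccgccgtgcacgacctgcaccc

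The *Nfil3* RORE core begins 12 bases before the start, the *Cry1* E-box 60 and its variant 79 bases before it. In *Per1* the D-box lies 24 and the E-box 166 bases before the start, and in *Per3* the D-boxes begin 205 and 158 bases before it. These are matches of letters in 1 short window, given as a description.

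Each gene is given below as the log2 signal of its probeset, on which 1 unit is a doubling, and a change is the *db/db* mean minus the normal mean. All 10 genes had 1 probeset each and reached the level filter of the study's methods (at least 100 on the linear scale in 3 arrays), as did 12763 genes and 20661 probesets in all. Array medians lay between 7.00 and 7.04, and arrays correlated pairwise with r between 0.924 and 0.953. Normal replicate 2 had the lowest mean r with the other arrays, 0.927, against 0.942 to 0.946 for the other 5. The 9 endothelial markers summed to between 59895 and 62127 on the linear scale in *db/db* arrays and between 59982 and 60816 in normal arrays. Of these 9, 4 were higher in every *db/db* array, 3 were lower in every *db/db* array and 2 overlapped, with changes of -0.33 to 0.21. Over all probesets 7.01% were higher and 5.31% lower without overlap. The gaps between the groups were at most 0.13 (*Cdh5*), and 0.02 for *Ehd3*. *Tek*, which encodes Tie2 and whose promoter drives the transgene used for sorting, measured 12.18, 12.48 and 12.26 in *db/db* GEC, against 12.59, 12.55 and 12.77 in normal GEC (change -0.33 ± 0.12, unadjusted p 0.0321, adjusted p 0.754). The part of *Tek* in the clock gene differences was not tested.

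Of the 10 clock genes, *Nfil3* and *Cry1* had all 3 *db/db* arrays below all 3 normal arrays, and the other 8 overlapped between the groups. No gene reached an adjusted p of 0.05 in limma, clock genes included (0.0% of all probesets, with 1320 at an unadjusted p of 0.05). At an unadjusted p of 0.05 there were 2 clock genes, *Nfil3* and *Cry1*, both lower in *db/db*, and 0 higher, beside 2.91% of all probesets lower, 3.48% higher and 6.39% in either direction. Groups that do not overlap were found for 12.3% of all probesets, and lower in *db/db* for 5.31%. The median change of the 10 genes was -0.04, against 0.01 over all probesets tested, and 8 of the 10 had a lower mean in *db/db* GEC, beside 46.1% of all probesets.

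*Nfil3*, which encodes the bZIP repressor that opposes DBP and TEF at the D-box, measured 7.60, 8.07 and 8.18 in the *db/db* arrays, against 8.56, 9.18 and 9.40 in the normal arrays. The highest *db/db* array was 0.38 below the lowest normal array. The means were 7.95 ± 0.31 in *db/db* and 9.04 ± 0.43 in normal GEC (SD, 3 arrays each), a 2.14-fold lower signal. The change was -1.10 ± 0.27 (limma's moderated SE), with a 95% interval of -1.75 to -0.44, an unadjusted p of 0.00683 and an adjusted p of 0.572. Counted from the most negative change, *Nfil3* was number 23 of 12763 genes. Leaving out each array in turn gave changes of -1.34 to -0.92, with an unadjusted p of at most 0.0241. The study itself names *Nfil3* among genes with altered expression in *db/db* GEC. That result comes from these same arrays and is not separate evidence. Another annotation of the probeset, in the study's supplement, also lists a predicted locus similar to *Nfil3*, whose signal cannot be separated from that of *Nfil3* here.

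*Cry1*, the cryptochrome that represses ARNTL and CLOCK late in the cycle, was the second gene without overlap. It measured 7.86, 7.82 and 8.12 in the *db/db* arrays, against 8.19, 8.88 and 8.44 in the normal arrays. The gap between the groups was narrow, 0.07, and the normal arrays spread more widely than the *db/db* arrays. The change was -0.57 ± 0.20 (1.48-fold lower, 95% interval -1.06 to -0.08), with an unadjusted p of 0.0305 and an adjusted p of 0.752. Without diabetic replicate 1, diabetic replicate 2 or normal replicate 3 the unadjusted p was 0.0815, 0.0863 or 0.058. Without normal replicate 2, the highest array, the change was -0.38 with an unadjusted p of 0.0491. *Cry2*, the other cryptochrome, lay close to the level filter in all arrays, with 6.61, 6.65 and 6.69 in *db/db* and 6.76, 6.49 and 6.82 in normal GEC (change -0.04 ± 0.11, 95% interval -0.32 to 0.23). The difference between *Cry1* and *Cry2* was not tested.

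**Figure D1:**
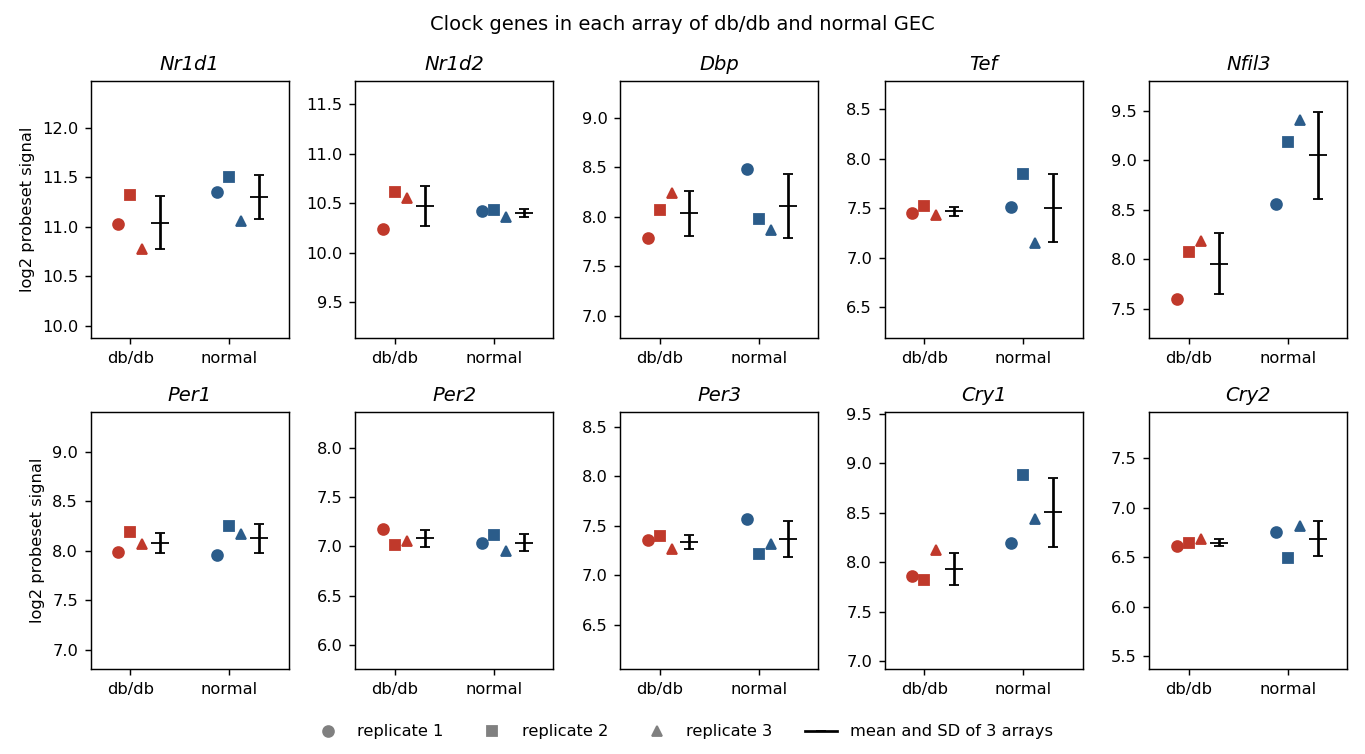
Log2 probeset signal of the 10 clock genes in each array, with *db/db* arrays (red) left of normal arrays (blue), replicates by symbol, and the mean with SD of 3 arrays as a black bar. Every panel spans the same number of log2 units around the gene's own mean, since levels of different probesets are not comparable. *Nfil3* and *Cry1* are the panels without overlap, and in the other 8 the groups overlap.

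The REV-ERB repressors overlapped between the groups. *Nr1d1*, which encodes REV-ERB alpha, measured 11.03, 11.32 and 10.78 in *db/db* GEC, against 11.35, 11.50 and 11.06 in normal GEC. The *db/db* arrays reached lower and the normal arrays higher, around means of 11.04 ± 0.27 in *db/db* and 11.30 ± 0.22 in normal GEC (change -0.26 ± 0.18, 95% interval -0.72 to 0.19, unadjusted p 0.206). *Nr1d2*, which encodes REV-ERB beta, measured 10.24, 10.62 and 10.55 in *db/db* GEC, against 10.42, 10.43 and 10.36 in normal GEC. Here the *db/db* arrays lay on both sides of the tightly grouped normal arrays (change 0.07 ± 0.12, 95% interval -0.23 to 0.37, unadjusted p 0.595). The REV-ERB genes thus had changes of opposite sign, neither past an unadjusted p of 0.05.

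The PAR bZIP activators, which drive D-box output genes, also overlapped. *Dbp*, in most mouse tissues a gene with a large daily swing, measured 7.79, 8.07 and 8.24 in *db/db* GEC, against 8.48, 7.98 and 7.87 in normal GEC. Both the lowest *db/db* array and the highest normal array were those numbered 1, and the change was -0.08 ± 0.21 (95% interval -0.58 to 0.43, unadjusted p 0.723). *Tef* measured 7.45, 7.52 and 7.43 in *db/db* GEC, against 7.51, 7.84 and 7.15 in normal GEC. The SD of *Tef* was 0.05 over the *db/db* arrays and 0.35 over the normal arrays, around nearly equal means (change -0.04 ± 0.18, 95% interval -0.49 to 0.42).

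The period genes, whose proteins repress ARNTL and CLOCK together with the cryptochromes, differed little between the groups. *Per1*, which also responds quickly to hormones and other signals, measured 7.99, 8.19 and 8.07 in *db/db* GEC, against 7.96, 8.25 and 8.17 in normal GEC (change -0.04 ± 0.11, 95% interval -0.32 to 0.23). *Per2* measured 7.18, 7.01 and 7.06 in *db/db* GEC, against 7.04, 7.12 and 6.95 in normal GEC (change 0.05 ± 0.09, 95% interval -0.18 to 0.28). *Per3* measured 7.35, 7.39 and 7.26 in *db/db* GEC, against 7.57, 7.21 and 7.31 in normal GEC (change -0.03 ± 0.12, 95% interval -0.32 to 0.26). In all 3 the groups interleaved, and the unadjusted p lay between 0.612 and 0.792. *Per2* (means 7.09 in *db/db* and 7.04 in normal GEC) and *Per3* (7.33 and 7.37) had low signal, not far from the array medians. With a level filter of 200 in place of 100, 6 of the 10 genes remained, and *Per2*, *Per3*, *Tef* and *Cry2* dropped out. Small changes at such low signal are weak evidence that these genes did not differ. *Per1* and *Per3*, the genes whose windows above hold D-box letters, had changes of -0.04 and -0.03. The D-box repressor gene *Nfil3* had -1.10 in the same arrays, and its effect on *Per1* and *Per3* was not tested.

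Spread between arrays of the same group differed among the clock genes. The SD within groups was 0.38 for *Nfil3*, 0.28 for *Dbp*, 0.27 for *Cry1*, 0.25 for *Nr1d1* and *Tef*, 0.15 for *Nr1d2*, 0.14 for *Per3*, 0.13 for *Per1* and *Cry2*, and 0.09 for *Per2*. Over all genes the median was 0.16, so that *Nfil3*, with 1409 of 12763 genes above it, was among the more variable genes, and *Per2*, with 10551 above it, among the less variable. The range over all 6 arrays had a median of 0.54 for the 10 genes and 0.45 for all genes.

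The activators of the loop were measured for comparison. *Arntl* measured 8.98, 9.72 and 9.59 in *db/db* GEC, against 9.64, 9.36 and 10.38 in normal GEC. The lowest array of all was diabetic replicate 1 and the highest normal replicate 3, with the other 4 intermixed (change -0.37 ± 0.33, 95% interval -1.17 to 0.44, unadjusted p 0.306). Without normal replicate 3 the change was -0.07, and without diabetic replicate 1 it was -0.14. *Clock* measured 11.17, 10.97 and 10.99 in *db/db* GEC, against 10.95, 10.88 and 10.92 in normal GEC. Its *db/db* arrays were all above the normal arrays, as for 7.01% of all probesets, by a gap of 0.02 (change 0.13 ± 0.09, 95% interval -0.09 to 0.34, unadjusted p 0.204). *Npas2*, the partner that can replace CLOCK, had no probeset of its own in the annotation and is not analysed here.

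**Figure D2:**
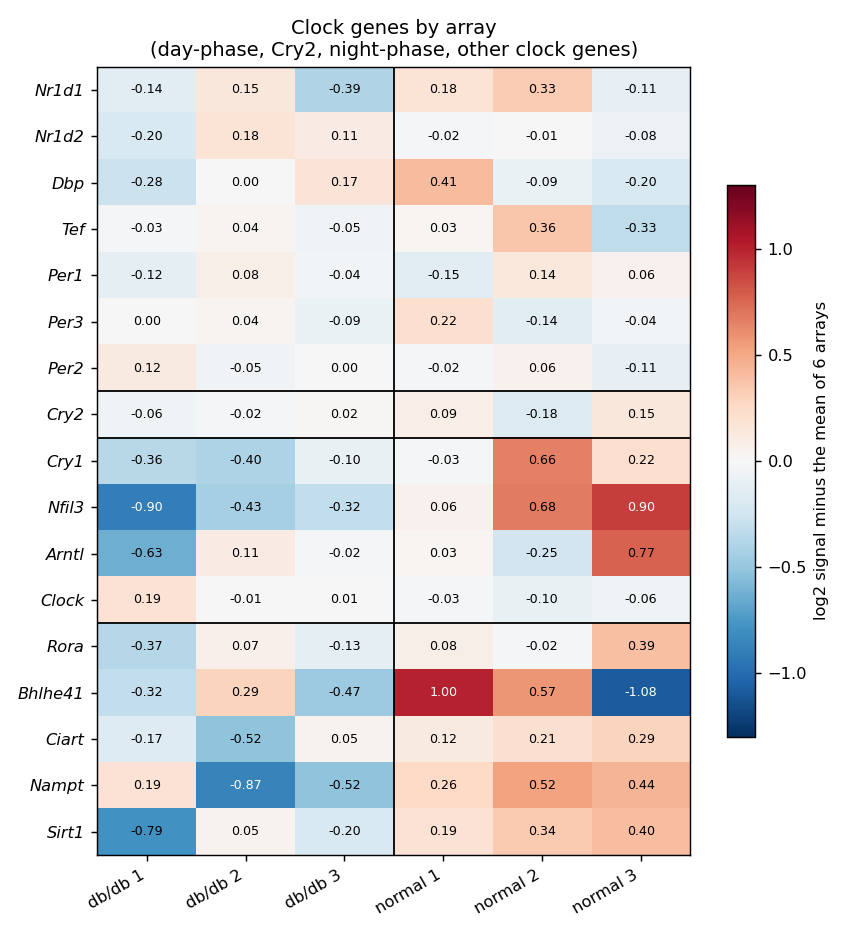
Log2 signal minus the gene's mean over 6 arrays, with *db/db* arrays left of normal arrays and lines between day-phase genes, *Cry2*, night-phase genes and other clock genes. *Nfil3* and *Cry1* are below 0 in all 3 *db/db* arrays, the day-phase genes show no block of 1 colour in either group, and normal replicate 3 holds the highest *Arntl*, *Nfil3* and *Rora* and the lowest *Bhlhe41*.

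The day-peaking and night-peaking arms were then set side by side in each array. Each gene was centred on its mean over 6 arrays, and 7 day-phase genes (*Nr1d1*, *Nr1d2*, *Dbp*, *Tef*, *Per1*, *Per2*, *Per3*) and 4 night-phase genes (*Arntl*, *Clock*, *Cry1*, *Nfil3*) were averaged, the phases being those known from mouse liver and other tissues. The day-phase level was -0.09, 0.06 and -0.04 in the *db/db* arrays, against 0.09, 0.09 and -0.12 in the normal arrays, with overlap and a difference of -0.05. The night-phase level was -0.42, -0.18 and -0.11 in the *db/db* arrays, against 0.01, 0.25 and 0.46 in the normal arrays, without overlap and with a difference of -0.48. Of the night-phase genes, *Nfil3* (change -1.10), *Cry1* (-0.57) and *Arntl* (-0.37) all lowered the *db/db* average, *Nfil3* the most, and *Clock* (0.13) lay the other way. *Arntl* overlapped between the groups. Its lowest array, diabetic replicate 1, and its highest, normal replicate 3, were also the lowest and highest of the night-phase level. The day-phase average differed by less than the spread between arrays. It includes *Tef*, *Per2* and *Per3*, which had low signal, as given above for the period genes. The averages are given without a test.

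The 7 day-phase genes had changes of -0.26 to 0.07 with a median of -0.04, and 0 of them passed an unadjusted p of 0.05 or had groups without overlap. The 4 night-phase genes had changes of -1.10 to 0.13 with a median of -0.47. Of these, 2 (*Nfil3* and *Cry1*) passed an unadjusted p of 0.05, both lower, beside 2.91% of all probesets. Groups did not overlap for the same 2, lower in *db/db* GEC, and for *Clock*, higher, beside 5.31% and 7.01% of all probesets. *Clock*, which varies little over the day in many tissues, was the night-phase gene with a positive change.

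Day-phase minus night-phase level was 0.33, 0.25 and 0.07 in the *db/db* arrays, against 0.09, -0.15 and -0.57 in the normal arrays. The groups overlapped by a narrow margin, and the means were 0.21 ± 0.14 in *db/db* and -0.21 ± 0.33 in normal GEC (SD, 3 arrays each), a difference of 0.43. Normal replicate 3 was the farthest array, and without it the difference was 0.25. The normal arrays therefore differed among themselves in this measure by more than the *db/db* arrays did. The balance at the D-box, the mean of *Dbp* and *Tef* minus *Nfil3*, was chosen after the values were seen. It was 0.74, 0.45 and 0.37 in the *db/db* arrays, against 0.15, -0.54 and -1.17 in the normal arrays, and the groups did not overlap. Its difference of 1.04 nearly equals that of *Nfil3* alone with the sign turned.

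**Figure D3:**
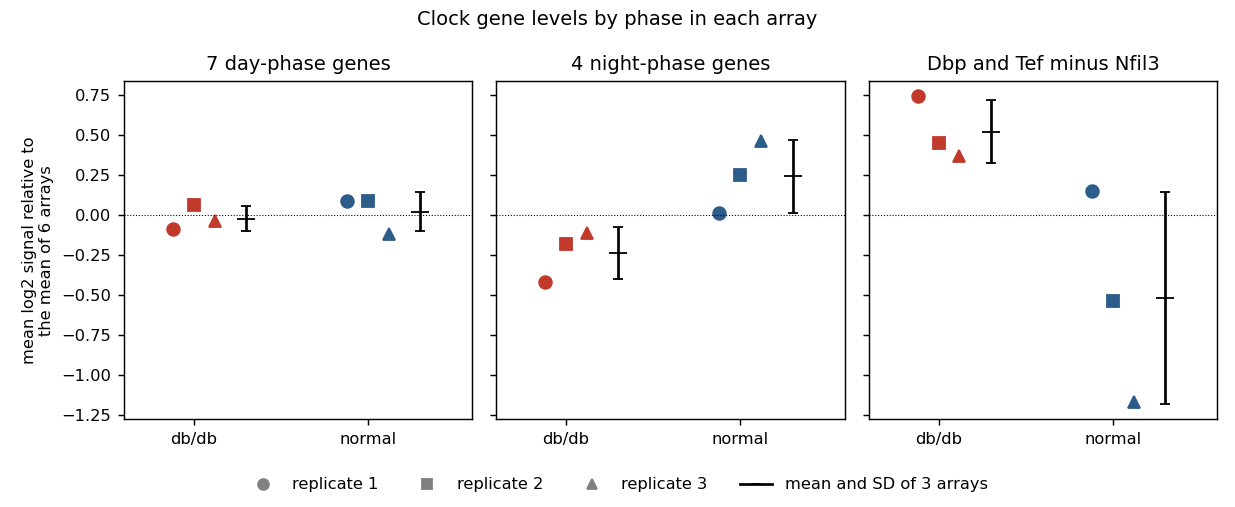
Mean centred log2 signal of the 7 day-phase genes, of the 4 night-phase genes, and of *Dbp* and *Tef* minus *Nfil3* in each array, with *db/db* arrays (red) left of normal arrays (blue) and the mean with SD of 3 arrays as a black bar. The day-phase levels interleave, whereas the night-phase level and the D-box balance, both with *Nfil3* in them, have no overlap between the groups.

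A further list of 25 clock regulators and modifiers was examined, of which 23 had a probeset and 18 passed the level filter. Of these 18, 3 were lower in *db/db* GEC at an unadjusted p of 0.05 and 0 were higher, beside 2.91% and 3.48% of all probesets, with a median change of -0.07. The same 3 were the list's genes with groups that do not overlap, beside 5.31% of all probesets for this direction. *Nampt* encodes an enzyme on the path from nicotinamide to NAD and is a rhythmic target of ARNTL and CLOCK. It measured 9.85, 8.79 and 9.14 in *db/db* GEC, against 9.92, 10.18 and 10.10 in normal GEC. The 3 normal arrays lay close together and the *db/db* arrays were spread below them (change -0.81 ± 0.28, 1.75-fold lower, unadjusted p 0.0276, adjusted p 0.743). *Sirt1*, the NAD-dependent deacetylase that acts on ARNTL and PER2, measured 8.68, 9.52 and 9.27 in *db/db* GEC, against 9.65, 9.80 and 9.87 in normal GEC (change -0.62 ± 0.23, 1.53-fold lower, unadjusted p 0.0359, adjusted p 0.754). Both genes of the NAD branch were thus lower in every *db/db* array. *Ciart*, which encodes the repressor CHRONO, measured 6.53, 6.18 and 6.75 in *db/db* GEC, against 6.82, 6.91 and 6.98 in normal GEC (change -0.42 ± 0.16, unadjusted p 0.0419, adjusted p 0.758).

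All 3 genes stayed lower in *db/db* GEC when each array was left out, though the unadjusted p did not always stay under 0.05. The *Nampt* change was -1.10 without diabetic replicate 1 (unadjusted p 0.00109), -0.57 without diabetic replicate 2 and -0.75 to -0.88 without any of the other 4 in turn, and its p was between 0.063 and 0.077 without diabetic replicate 2 or 3 or normal replicate 2 or 3. Without diabetic replicate 1, the lowest *Sirt1* array, the *Sirt1* change was -0.38 with an unadjusted p of 0.0382, and without diabetic replicate 3 or any normal array the change was -0.68 to -0.57 with a p between 0.055 and 0.0951. *Ciart* was below 0.05 only without diabetic replicate 3 among the 6 arrays left out in turn, and its change was -0.26 without diabetic replicate 2. The list's members with the highest signal did not differ past an unadjusted p of 0.05. These were the PER kinases *Csnk1a1* (11.90 in *db/db* and 11.93 in normal GEC, change -0.03 ± 0.08) and *Gsk3b* (10.73 in *db/db* and 10.56 in normal GEC, change 0.17 ± 0.14), and the PER partner *Nono* (10.85 in *db/db* and 10.93 in normal GEC, change -0.09 ± 0.09).

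A pair of further regulators is named after their values were seen. *Rora*, an activator at the element that the REV-ERBs also bind, measured 7.99, 8.43 and 8.23 in *db/db* GEC, against 8.44, 8.34 and 8.75 in normal GEC (change -0.30 ± 0.16, unadjusted p 0.122). *Bhlhe41*, a repressor at the E-box, had the widest range of the listed clock genes, 2.10, with 7.42, 8.03 and 7.27 in *db/db* GEC and 8.74, 8.30 and 6.65 in normal GEC. Normal replicate 3, which held the highest *Arntl*, *Nfil3* and *Rora*, held the lowest *Bhlhe41* and the lowest *Tef*.

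**Figure D4:**
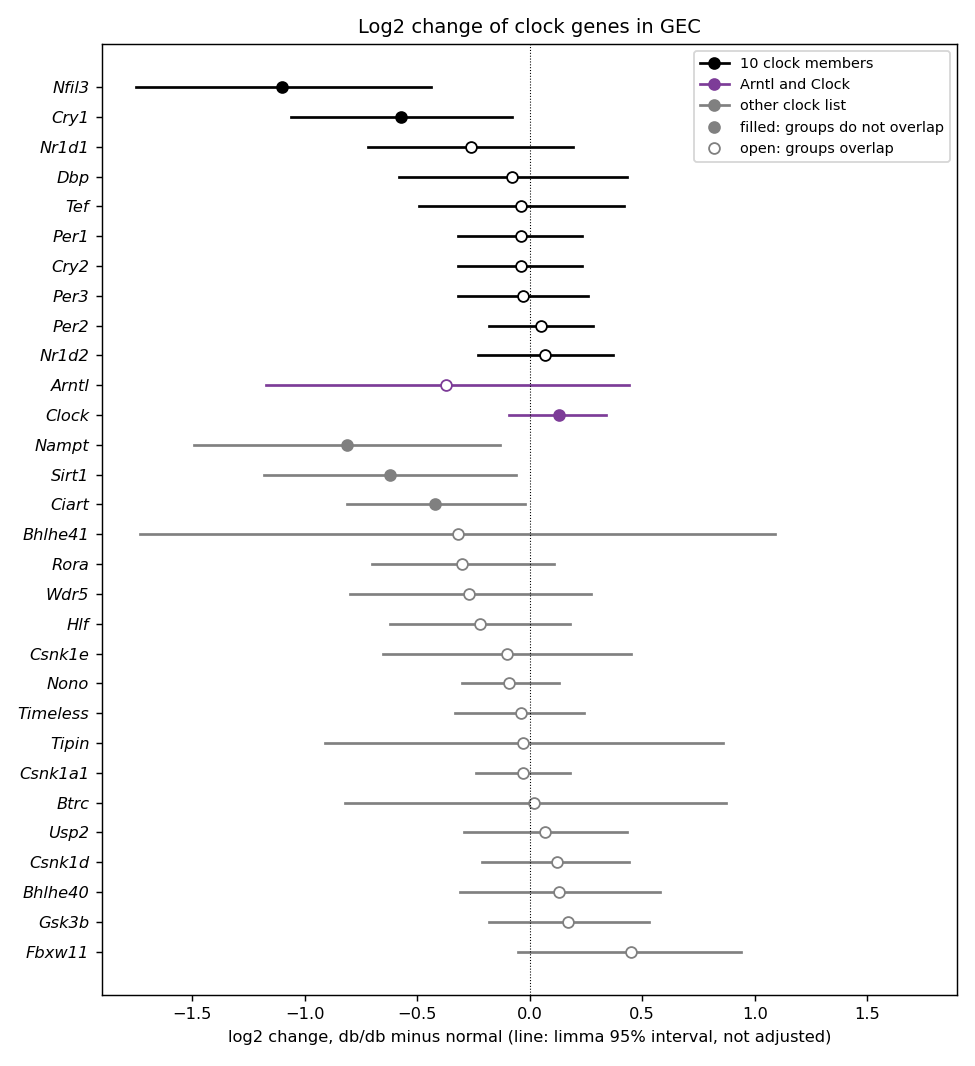
Log2 change (*db/db* minus normal) with limma's unadjusted 95% interval for the 10 clock genes (black), *Arntl* and *Clock* (purple) and the 18 measured genes of the further clock list (grey), with filled points where the groups do not overlap. The intervals of *Nfil3*, *Cry1*, *Nampt*, *Sirt1* and *Ciart* lie below 0, and all others reach across it.

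Genes whose pattern over the 6 arrays was most like that of *Dbp* were sought by the root mean square difference of centred log2 values over 12763 genes. The nearest were *Zfp397* (0.06), *Zfp84* (0.07), *Anks3* (0.08), *Rabep2* (0.08) and *Lyrm4* (0.09), where a flat line gave 0.23. The nearest to its mirror image were *Usp42* (0.05), *Ice2* (0.08), *Dap3* (0.08), *Nexn* (0.08) and *Smpd4* (0.09). No clock gene measured was among these 10. The closest to *Dbp* were *Usp2*, a deubiquitinase gene of the further clock list, with 0.16 in place 323, and *Per3* with 0.19 in place 843, set against 0.23 for the flat line. The clock genes closest to the mirror image of *Dbp* were *Fbxw11* (0.19, in place 578) and *Csnk1a1* (0.19, in place 677). *Per1* lay nearer to that mirror image (0.22) than to *Dbp* (0.29). The same search around *Nfil3*, chosen after the values were seen, gave *Sh3yl1* (0.18), *Zfyve9* (0.21), *Mylpf* (0.23), *Lrrc2* (0.23) and *Meox1* (0.24), where a flat line gave 0.63. Of the clock genes measured, *Sirt1* (0.33, in place 24) and *Cry1* (0.37, in place 58) were closest to *Nfil3*. *Ciart* (0.46, in place 294), *Rora* (0.47, in place 336) and *Arntl* (0.47, in place 360) came next. The nearest to the mirror image of *Nfil3* were *Hdc* (0.10), *Meiob* (0.13), *Plxnc1* (0.14), *Gda* (0.15) and *Tmem229b* (0.18).

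Cues that act on clock genes from outside the loop were read in the same arrays, where 3.48% of all probesets were higher in *db/db* GEC and 2.91% lower at an unadjusted p of 0.05. Of 13 genes that glucocorticoids raise, 10 passed the level filter, 1 was higher in *db/db* GEC at an unadjusted p of 0.05 and 0 were lower, with a median change of -0.06. The 1 gene was *Ddit4*, an inhibitor of mTOR signalling, with 8.01, 7.83 and 7.99 in *db/db* GEC and 7.69, 7.58 and 7.49 in normal GEC (change 0.36 ± 0.10, unadjusted p 0.0108, adjusted p 0.626). *Per1* is itself raised by glucocorticoids and interleaved between the groups, as given above. Of 19 immediate early genes, which cell dissociation also raises, 18 passed the filter, 2 were higher (*Atf3*, change 0.58 ± 0.16, and *Egr2*, 0.21 ± 0.08) and 2 lower (*Klf4*, -0.64 ± 0.11, and *Btg2*, -0.39 ± 0.14), with a median of -0.03. Of 11 heat-shock and cold-inducible genes 10 were measured and 0 passed an unadjusted p of 0.05, with a median of -0.03. This median pools both kinds. The cold-inducible *Cirbp* (0.45 ± 0.27) and *Rbm3* (0.39 ± 0.16) had higher means, *Rbm3* in every *db/db* array, as for 7.01% of all probesets. The heat-shock genes had changes of -0.57 (*Hspb1*, lower in every *db/db* array, as for 5.31% of all probesets) to 0.03 (*Hspd1*). None of these genes passed the adjusted test, and their part in the *Nfil3* and *Cry1* differences was not tested.

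Markers of other cells that a sort could carry over were summed on the linear scale. Of 6 leukocyte markers, all measured, 2 passed the level filter, and the sum was 523 to 731 in *db/db* and 482 to 538 in normal arrays. The 2 that passed had changes of opposite sign. The macrophage marker *Cd68* measured 7.95, 7.59 and 6.91 in *db/db* GEC, against 6.63, 6.72 and 6.81 in normal GEC, without overlap (change 0.76 ± 0.27, adjusted p 0.752, beside 7.01% of all probesets without overlap in this direction). The T cell marker *Cd3e* overlapped (change -0.11 ± 0.16). Of the 4 below the filter, *Ptprc*, *Adgre1* and *Lyz2* overlapped between the groups, and the B cell marker *Cd79a* was lower in every *db/db* array (5.14 in *db/db* and 5.47 in normal GEC). Of 6 podocyte markers 4 were measured, and their sum was 3962 to 4055 in *db/db* and 4397 to 5258 in normal arrays, mostly from *Podxl*, which endothelial cells also express. Of 6 mesangial markers 5 were measured and 2 passed the filter (sum 887 to 1013 in *db/db* and 721 to 913 in normal arrays), and of 6 tubule markers 4 passed (1403 to 1656 in *db/db* and 1649 to 1678 in normal arrays). The tubule sum came mostly from *Aqp1* (9.92 in *db/db* and 10.12 in normal GEC), which overlapped between the groups. Of 6 erythrocyte and platelet markers 3 were measured, with a sum of 369 to 688 in *db/db* and 669 to 996 in normal arrays. The platelet genes *Ppbp* (change -0.84 ± 0.48) and *Pf4* (-0.66 ± 0.39) and the erythrocyte gene *Alas2* (-0.10 ± 0.12) all overlapped between the groups. No marker was at 0, since arrays give a signal for every probeset. The part of these cells in the *Nfil3* and *Cry1* differences was not tested, and in such sorted bulk samples fewer cells of a type and less RNA per cell cannot be told apart.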

How the data were processed

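RNA of sorted GEC was measured in 3 *db/db* and 3 normal samples, 1 array each. The deposited values are log2 probeset signal. The study states RMA normalisation in GeneSpring, while the submitters' processing notes name MAS5. The near-equal array medians do not settle which was used, and the values were used as they stand. Either removes differences in total signal, so changes are relative to other probesets. Precision is limited by the small number of arrays.

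Of 35557 probesets, 21789 had 1 gene symbol, 1621 several and 12147 none. A gene was given by its single-symbol probeset with the highest mean. Groups came from the sample labels. limma 3.58.1 (lmFit and eBayes, R 4.3.3) was fitted to the 20661 probesets whose linear signal reached 100 in at least 3 arrays, as *db/db* minus normal with two-sided p-values. These were adjusted over all 20661 by Benjamini and Hochberg's method, with a threshold of 0.05. The fit was tested on simulated data. Samples are labelled as biological replicates, and whether animals were pooled is not given in the sources used here, so p-values measure only the spread between these samples. The labels do not pair the replicates. Over all probesets, deviations of samples with the same number hardly correlated (-0.00385, 0.0353 and -0.0296), so no block was used. Such a correlation cannot exclude pairing for single genes, and a fit with a block is given below.

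The 10 genes and all lists were chosen with earlier results of these data known. Named are the 10 genes, *Arntl*, *Clock* and *Npas2*, of the further clock list those with an unadjusted p under 0.05 and the 3 with the highest mean, of the cue lists those with an unadjusted p under 0.05 (at most 4 each), and the 5 genes nearest to *Dbp* or its mirror image. Alternatives concerned normalisation (quantile, or centring each array on its median), the level filter (none, or 200), the variance prior (an intensity trend, alone or made robust), weights for arrays, a replicate block, the methods' t-test (of equal variance, unpaired), and the probesets used (1 for each gene, only those with a gene, or averages over a gene's probesets). Each array was also left out in turn. Python 3.11.15 and matplotlib 3.10.9 drew the figures.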

Additional observations from a re-analysis of the deposited data

How the results depend on the processing

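*Nfil3* kept its direction and an unadjusted p under 0.05 in all 19 settings run (adjusted p 0.416 to 0.891), and *Cry1* kept its direction in 19 and an unadjusted p under 0.05 in 14 of them (adjusted p 0.578 to 0.98). The number of clock genes at an unadjusted p of 0.05 was 1 with array weights and 1 with the methods' t-test (*Nfil3* in both), and 1 to 2 when each array was left out, with *Nfil3* alone without diabetic replicate 1 or 2 or normal replicate 3. With the replicate block it was 2, with p 0.000626 for *Nfil3*, 0.0495 for *Cry1* and 0.0553 for *Nr1d1* (0.206 without the block). The block changed no call over all probesets. Over all probesets 0 were called, also with the methods' t-test after adjustment (1280 at an unadjusted p of 0.05), while 1 was called with 1 probeset per gene and 1 when probesets without a gene symbol were left out, in neither case a clock gene. Of 264 values for 15 genes under alternatives, 10 reversed in sign, all of them changes smaller than their SE. These were *Per1* with array weights (0.007) and, when each array was left out, *Per1* (-0.126 to 0.016), *Dbp* (-0.198 to 0.11), *Per3* (-0.11 to 0.071), *Tef* (-0.21 to 0.137), *Cry2* (-0.142 to 0.024) and *Nr1d2* (-0.007 to 0.183). The count of clock genes without overlap was 2 to 3 without 1 array (20.8% to 24.0% of all probesets), and day-phase minus night-phase level differed by 0.249 (without normal replicate 3) to 0.578. The cause of these shifts was not tested. With 3 arrays a group, an exact permutation test of a single value cannot give a two-sided p below 0.1.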
